A study of Mus musculus with 23 samples.

Results

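The interleukin-6 family genes described here are 9 genes listed by symbol, with no threshold on their values though with earlier results of these data known: the ligands Il6, Lif, Il11, Osm and Clcf1, the receptor subunits Osmr and Lifr, the transcription factor Stat3 and the inhibitor Socs3. All 9 were found among the 43068 genes listed for nerves after crush injury and among the 22880 genes listed for inducible knockout (iKO) nerves. RNA sequencing of whole mouse sciatic nerves (SNs) gave 23 libraries in 7 groups, each from the nerve of 1 mouse. The crush groups were wild-type male mice of the C57bl6 background: crush injured nerves 3 days after surgery (n = 4), the contralateral nerves of injured mice at the same time (n = 4) and uncrushed surgery controls (n = 3), all from 2-month-old animals. The iKO groups were of the same background and were sampled 3 months after tamoxifen, which mutants and controls both received at 8 to 10 weeks of age (n = 3 each). Dicer iKO mice were P0-CreERT2 -/+ Dicer1 flox/flox and their controls P0-CreERT2 -/- Dicer1 flox/flox, while Dgcr8 iKO mice were P0-CreERT2 -/+ Dgcr8 flox/flox and their controls P0-CreERT2 -/- Dgcr8 flox/flox. The Cre acts in myelinating Schwann cells (SCs), and the mutants were preselected for altered nerve morphology, so the iKO groups describe affected animals. The crushed samples were taken distal to the injury. Contralateral nerves came from the injured mice, and the labels do not say whether a replicate number marks an animal.

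Cytokines of the interleukin-6 family signal through the shared receptor subunit gp130, encoded by Il6st. Interleukin-6 and interleukin-11 first bind their own alpha receptors and then pairs of gp130, whereas Lif, Clcf1 and ciliary neurotrophic factor (Cntf) recruit gp130 together with Lifr, and oncostatin M (Osm) recruits gp130 together with Osmr. The receptors activate Jak kinases, which phosphorylate Stat3, and Stat3 raises the transcription of Socs3, which in turn blocks the receptor complex. In peripheral nerve the family is known for Cntf, which myelinating SCs hold in large amounts, and for Lif and interleukin-6, which are described as injury signals to neurons and macrophages.

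Several of the 9 genes lie next to each other in the mouse genome (GRCm38). Osm (chr11:4236420-4241026) and Lif (chr11:4257557-4272514) are both on the plus strand, 16530 bases apart, and Osmr (chr15:6813577-6874969, minus strand) lies 215644 bases from Lifr (chr15:7090614-7197489, plus strand). Stat3 (chr11:100885098-100939540) and Socs3 (chr11:117966079-117970047) are on the minus strand of the same chromosome as Osm and Lif. Il6 (chr5:30013114-30019981, plus strand), Il11 (chr7:4772373-4782859, minus strand) and Clcf1 (chr19:4214238-4223490, plus strand) lie elsewhere. All 9 are protein-coding genes.

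RefSeq promoter sequence (GRCm38.p6) was at hand for 7 of the 9 genes, in 9 windows, and was searched over the 250 bases before the transcription start on both strands. The letters TTCNNNGAA, the general STAT motif, were found in 1 of these 9 windows, that of Socs3, and in 7.02% of all 32851 promoter windows. The letters TGANTCA, the AP-1 motif bound by Fos and Jun proteins, were found in 3 of the 9 windows and in 6.75% of all windows. The 3 were those of Il6 and Lif and 1 of the 2 windows of Il11. No window of the 9 held both motifs, and each motif reads the same on either strand apart from its N positions. The stretches below are shown because they hold the motifs, which are in capitals, and each is read 5′ to 3′ on the strand of the gene.
Socs3, chr11:117969492-117969540, minus strand: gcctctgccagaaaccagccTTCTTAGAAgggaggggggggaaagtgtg
Lif, chr11:4257320-4257366, plus strand: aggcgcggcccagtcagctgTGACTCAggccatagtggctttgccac
Il11, chr7:4778213-4778259, minus strand: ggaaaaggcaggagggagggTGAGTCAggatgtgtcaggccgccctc
Il6, chr5:30012864-30012891, plus strand: cTGAGTCActtttaaagaaaaaaaagaa
In Socs3 the motif starts at -154 from the RefSeq start (position 117969366), which lies inside the gene as GENCODE draws it and before the start of its main transcript. For 8 of the 9 windows the bases shortly after the start were found in a transcript of the gene. For the Socs3 window they were not. In Lif, Il11 and Il6 the motif starts at -228, -98 and -249. The Il11 match belongs to the RefSeq start at 4778141, inside the gene. The other Il11 window, at 4782857 near the annotated start of the gene, held no AP-1 motif. These matches are descriptions of letters, and binding at them was not measured here. Osm and Clcf1 have no entry.

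The counts came from RSEM, which divides reads among transcripts, and were summed per gene. Total counts per library ran from 5594859 to 12806066, and the level that 3 counts give, used as a floor, was 0.234 to 0.453 CPM (counts scaled to a common library size) for crush libraries and 0.296 to 0.536 CPM for iKO libraries. Floors and intervals on counts cover counting error only. CPM values were normalized by TMM within each experiment, over all its groups and before the count filter. Each fit was scaled by TMM over the tested genes of its own libraries. Ratios of CPM values can therefore differ from the fitted fold changes, and ratios of pooled counts use the CPM scaling. The experiments used different library kits by their labels, so levels were not tested between them. The test was the quasi-likelihood test of edgeR, and p-values were adjusted by Benjamini and Hochberg's method over all genes tested. A gene passed at an adjusted p of at most 0.05 and was called when it also changed at least 2-fold. P-values describe the spread between these libraries.

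Of the 9 genes, Clcf1 was the one with the largest change after crush, more than 100-fold, and it passed together with Osmr, Socs3, Stat3 and Lif, which were higher, and Lifr, which was lower. All 6 that could be tested passed against both control groups, 5 higher and 1 lower. Il6, Il11 and Osm did not reach the count filter in this experiment and are given as values. Against contralateral nerves, 33.5% of 16667 genes passed as higher and 32.9% as lower, and against uncrushed nerves 33.8% and 33.4% of 17433 genes did, so that about 2 in 3 genes of the nerve passed. Called as at least 2-fold higher were 3 of the 6, Clcf1, Osmr and Socs3, in both comparisons, against 14.6% of all genes (13.6% called lower) for the contralateral control and 15.3% (21.1% called lower) for the uncrushed control. The median log2 fold change of the 6 was 0.92 and 1.11, and that of all genes tested was -0.06 and -0.03. Against uncrushed nerves 2673 genes were called higher and 3686 lower, and with upper-quartile scaling, which moved the median of all genes by -0.20, 2058 and 4589, with no change of direction among the 6.

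Clcf1 encodes cardiotrophin-like cytokine factor 1, a ligand that acts through the ciliary neurotrophic factor receptor. It measured 218, 120, 139 and 109 CPM in the 4 crushed nerves. In contralateral nerves it measured 1.19, 1.40, 0.783 and 0.788 CPM and in uncrushed nerves 1.11, 0.941 and 0.763 CPM. The groups were far apart, and the first crushed nerve stood above the other 3. The fold change was 124 (95% interval 82.2 to 187, adjusted p = 3.01e-11) against contralateral and 138 (83.5 to 227, adjusted p = 3.78e-09) against uncrushed nerves. The control levels rest on 5 to 18 counts per library, so the denominator is known only roughly. In these comparisons Clcf1 reached the count filter through the crushed nerves. Of the counts assigned to Clcf1 in crushed nerves, 73.0% ± 3.5 (SD, n = 4) went to its protein-coding transcript of 1847 bases and 26.3% ± 3.3 to a transcript of 3550 bases annotated as retained intron. A microRNA gene on the other strand (Gm26115) overlaps Clcf1 and was listed separately. The protein-coding gene AC109138.7 overlaps Clcf1 on the same strand and was not listed in either experiment. Reads from it could therefore be counted to Clcf1.

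Lif, leukaemia inhibitory factor, measured 12.7, 12.81, 9.59 and 8.13 CPM in crushed nerves. It measured 6.34, 8.25, 6.26 and 8.08 CPM in contralateral and 7.01, 6.47 and 4.88 CPM in uncrushed nerves. The lowest crushed nerve fell within the contralateral range and all 4 lay above the uncrushed range. Lif rose by 0.44 ± 0.16 (log2 fold change ± SE, adjusted p = 0.0263) against contralateral and by 0.68 ± 0.19 (adjusted p = 0.00754) against uncrushed nerves. Against contralateral nerves Lif no longer passed when the first or second crushed or the first or the third contralateral library was left out, with adjusted p from 0.0727 to 0.113. The change of Lif was thus 1.36-fold and 1.60-fold, beside more than 100-fold for Clcf1 in the same nerves.

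Il6, interleukin-6, stayed close to the floor: 5, 14, 8 and 13 counts in crushed nerves (0.437, 1.25, 0.799 and 1.30 CPM), 10, 3, 2 and 5 in contralateral and 4, 4 and 1 in uncrushed nerves. Of the crushed nerves 2 lay above every contralateral nerve. The ratio of pooled counts was 2.07 (95% exact interval 1.18 to 3.73) to contralateral and 2.79 (1.33 to 6.53) to uncrushed nerves, which covers counting error and not the spread between nerves. Osm, which macrophages and neutrophils are known to make, had 6, 12, 9 and 3 counts in crushed, 5, 3, 2 and 6 in contralateral and 1, 1 and 1 in uncrushed nerves. Its ratio of pooled counts was 1.94 (1.02 to 3.81) to contralateral and 6.27 (1.95 to 32.1) to uncrushed nerves, the latter over only 3 control counts. Il11, interleukin-11, had 1, 2, 5 and 3 counts in crushed nerves against 3, 3, 1 and 2 in contralateral and 8, 1 and 1 in uncrushed nerves, and a difference was not detectable at this depth. When the count filter was dropped, Il6 (adjusted p = 0.0274) and Osm (adjusted p = 0.00470) passed against uncrushed nerves, and neither passed against contralateral nerves (adjusted p = 0.0976 and 0.209).

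**Figure D1:**
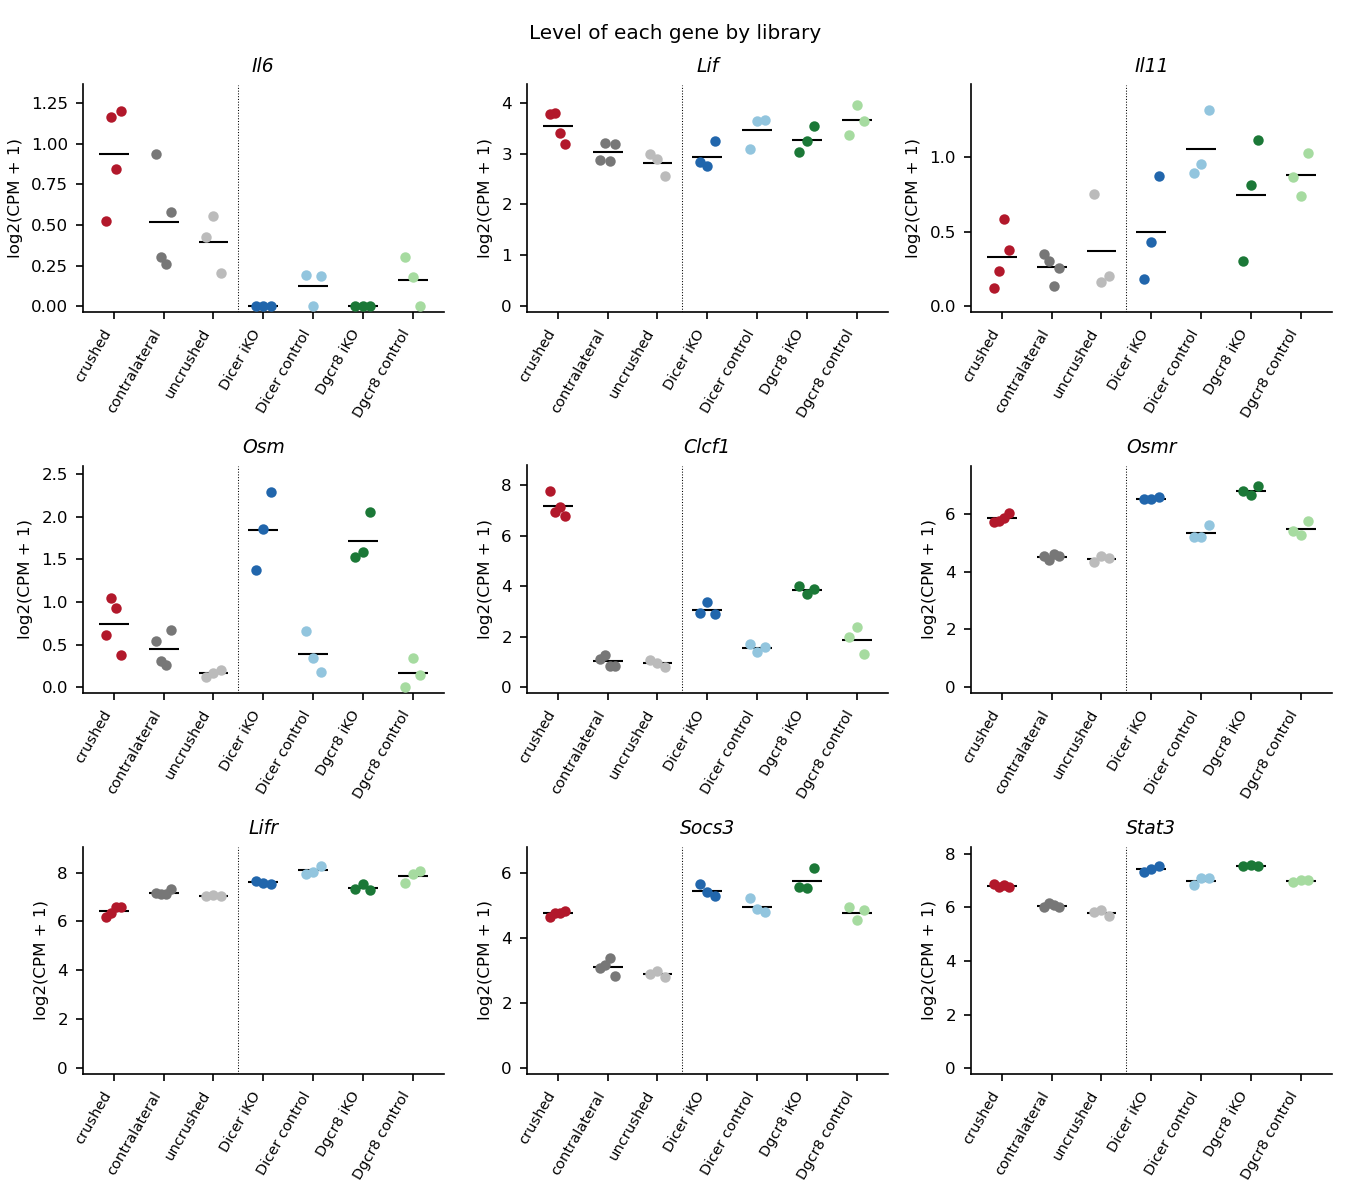
Level of each of the 9 genes in every library as log2(CPM + 1), with a line at each group's mean and the crush and iKO experiments on either side of the dotted line. Each panel has its own axis: Clcf1 stands apart in the 4 crushed nerves, Osm in the 6 iKO nerves, and Il6 is at 0 in all 6 iKO nerves.

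The 2 signalling receptor subunits moved in opposite directions. Osmr, the subunit that pairs with gp130 for oncostatin M, measured 51.3, 53.3, 57.3 and 63.7 CPM in crushed, 22.4, 19.99, 23.1 and 22.2 CPM in contralateral and 19.2, 22.4 and 20.9 CPM in uncrushed nerves. The crushed nerves all lay above both controls. Osmr rose 2.35-fold (95% interval 2.02 to 2.72, adjusted p = 5.91e-08) against contralateral and 2.503-fold (2.08 to 3.01, adjusted p = 1.37e-06) against uncrushed nerves. Lifr, the subunit used by Lif, Clcf1 and Cntf, measured 71.2, 79.4, 94.2 and 96.4 CPM in crushed nerves. It measured 140, 138, 140 and 159 CPM in contralateral and 129, 134 and 131 CPM in uncrushed nerves. Every crushed nerve lay below every control. Lifr fell by 0.89 ± 0.11 on the log2 scale (adjusted p = 3.29e-06) against contralateral and by 0.74 ± 0.12 (adjusted p = 0.000189) against uncrushed nerves, short of 2-fold in both. Per kb of transcript, Lifr stood at 19.3 ± 1.31 CPM per kb in contralateral nerves, above Osmr at 4.402 ± 0.27 (SD, n = 4). In crushed nerves the level of Lifr, 11.4 ± 1.61 CPM per kb, and that of Osmr, 11.3 ± 1.10 (SD, n = 4), overlapped.

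Stat3 and its inhibitor Socs3 were both higher after crush. Socs3 measured 24.3, 26.2, 26.6 and 27.3 CPM in crushed, 7.53, 8.01, 9.40 and 6.11 CPM in contralateral and 6.49, 6.94 and 5.95 CPM in uncrushed nerves, with no overlap. It rose 3.05-fold (95% interval 2.54 to 3.67, adjusted p = 3.15e-08) and 3.70-fold (3.08 to 4.45, adjusted p = 6.14e-08). Stat3 measured 116, 107, 114 and 106 CPM in crushed, 62.9, 70.3, 67.1 and 62.9 CPM in contralateral and 55.3, 59.1 and 49.9 CPM in uncrushed nerves, again with no overlap. It rose 1.53-fold (1.37 to 1.71, adjusted p = 4.82e-06) and 1.86-fold (1.61 to 2.14, adjusted p = 4.69e-06). The CPM scaling sets crushed nerves higher than the fits do, with Stat3 means of 110.7 CPM in crushed and 54.8 CPM in uncrushed nerves. Calls rest on the fits, where Stat3 stayed below 2-fold. Stat3 reads were divided mainly between 2 protein-coding transcripts. The shorter, of 2927 bases, took 42.0% (range 38.9 to 46.7) of the counts in crushed, 31.1% (28.4 to 38.1) in contralateral and 24.7% (16.2 to 30.5) in uncrushed nerves, and the crushed range did not overlap either control. The longer, of 4516 bases, took 43.5%, 51.2% and 53.4%. These shares are RSEM estimates for transcripts that share most of their sequence, and no test was made of them. Stat5a overlaps Stat3 on the other strand, and whether the counting used strand is not given in the sources used here.

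Between the control groups, contralateral against uncrushed, none of the 6 tested genes passed by edgeR's quasi-likelihood test, where 0% of 17722 genes did. At an unadjusted p under 0.05 there was 1 of the 6, Stat3, with a log2 difference of 0.19 ± 0.08 (adjusted p = 0.258), and the exact test and DESeq2 also passed 0 of the 6. The other 5 differed by 0.00 to 0.18 on the log2 scale. Over all genes, 3165 had an unadjusted p under 0.05 by the quasi-likelihood test. At the 2-fold limit the exact test called 2 genes higher and 161 lower, and DESeq2 0 and 20.

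Of the other ligands and receptors of the family, Cntf fell more than 100-fold after crush while Il6st (gp130) rose. Per kb of transcript, Cntf stood highest of the 6 ligands compared in both controls and Clcf1 in crushed nerves. Of 13 further family genes, 7 were tested against contralateral nerves, of which 3 were higher, 3 lower and 1 did not pass, and 7 against uncrushed nerves, of which 2 were higher, 3 lower and 2 did not pass, where 33.5% and 33.8% of all genes were higher and 32.9% and 33.4% lower. Cntf, which shares its receptor with Clcf1, measured 221, 291, 287 and 241 CPM in contralateral nerves, 295, 255 and 268 CPM in uncrushed nerves and 1.57, 0.979, 1.10 and 1.40 CPM in crushed nerves. It fell by 7.81 ± 0.16 and 7.86 ± 0.15 on the log2 scale (adjusted p = 2.91e-13 and 2.57e-11). Cntf lies inside Zfp91 on the same strand, so its reads could be divided with that gene. Per kb, Clcf1 stood at 63.3 ± 21.2 CPM per kb in crushed nerves, beside 242 ± 32.3 CPM per kb for Cntf in contralateral nerves (SD, n = 4).

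Among the receptors, Il6st (gp130) was the most abundant per kb in crushed nerves and rose 2.30-fold (2.07 to 2.57, adjusted p = 2.73e-09) against contralateral nerves, from 199 to 215 CPM to 490 to 565 CPM. Cntfr, the alpha receptor that binds Clcf1 and Cntf, fell by 1.68 ± 0.26 on the log2 scale (adjusted p = 4.94e-05), from 2.41 to 3.23 CPM to 0.602 to 1.22 CPM. Il27ra, a receptor of interleukin-27, rose by 1.81 ± 0.32 (adjusted p = 0.000150) at levels of at most 1.90 CPM. It had 20, 17, 19 and 16 counts in crushed against 3, 7, 4 and 5 in contralateral and 6, 4 and 2 in uncrushed nerves. Il27ra thus reached the count filter through the crushed nerves, and its place among the higher family genes is no independent support. Il6ra, the alpha receptor of interleukin-6, rose by 0.41 ± 0.09 (adjusted p = 0.000943) against contralateral and had 0.16 ± 0.09 (adjusted p = 0.146) against uncrushed nerves. Il11ra1, the alpha receptor of interleukin-11, fell by 0.40 ± 0.09 (adjusted p = 0.000850) and by 0.25 ± 0.10 (adjusted p = 0.0348). Ctf2 had -0.49 ± 0.25 (adjusted p = 0.0972) and -0.66 ± 0.30 (adjusted p = 0.0725). Ctf1, Il27, Ebi3, Il31, Il11ra2 and Il31ra were below the filter after crush.

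**Figure D2:**
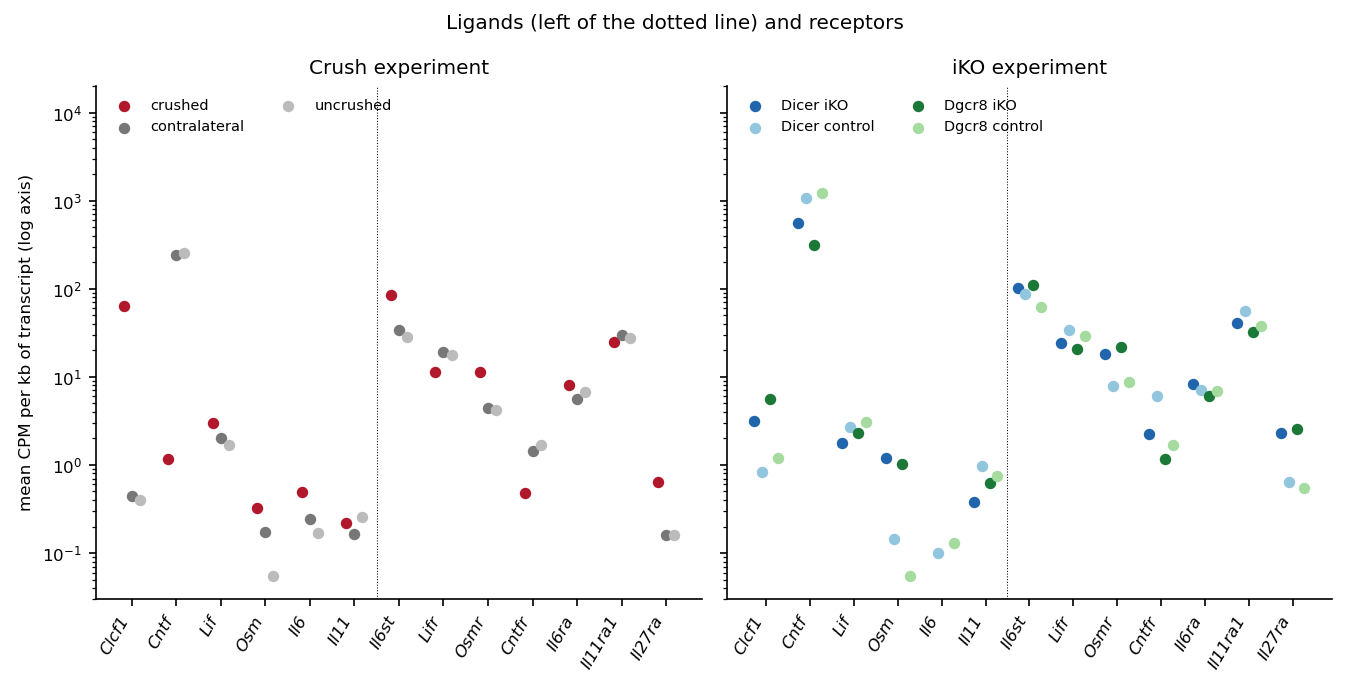
Mean level of 6 ligand genes (left of the dotted line) and 7 receptor genes in each group, in CPM per kb of transcript on a log axis, points being group means. In crushed nerves Clcf1 stood above Cntf, and in every other group Cntf stood above the other 5 ligands; groups with no count (Il6 in both iKO groups) have no point.

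The level of the 9 genes per kb was ordered differently in crushed nerves. In contralateral nerves the order was Lifr, Stat3, Osmr, Socs3, Lif, Clcf1, Il6, Osm and Il11, where Lifr and Stat3 overlapped, as did the last 4 with their neighbours. In crushed nerves it was Clcf1, Stat3, Lifr, Osmr, Socs3, Lif, Il6, Osm and Il11, where Lifr, Osmr and Socs3 overlapped with their neighbours and so did the last 3. Clcf1 moved from 0.449 ± 0.13 to 63.3 ± 21.2 CPM per kb.

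Of 25 kinases, STATs, phosphatases and inhibitors of the pathway, 13 were higher and 7 lower against contralateral nerves, and 14 higher and 2 lower against uncrushed nerves. Of all genes 33.5% were higher and 32.9% lower in the first comparison, and 33.8% and 33.4% in the second. The list's median log2 fold change was 0.21 and 0.33, beside -0.06 and -0.03 over all genes. The largest changes were of Ptpn6, a phosphatase of blood cells (3.00 ± 0.20, adjusted p = 5.75e-09 against contralateral), Socs1, a relative of Socs3 (1.75 ± 0.35, adjusted p = 0.000576), Jak3 (1.68 ± 0.21, adjusted p = 6.74e-06) and Jak1, which works at gp130 (1.44 ± 0.07, adjusted p = 2.89e-10). The same 4 were the largest against uncrushed nerves, at 3.29, 1.995, 1.93 and 1.65. The 2 lower genes there were Gab1 and Pias1, named after their values were seen. Socs1 had 25, 25, 17 and 10 counts in crushed against 5, 6, 3 and 7 in contralateral and 7, 3 and 1 in uncrushed nerves. It reached the count filter through the crushed nerves, so its place among the higher genes is no independent support. Of 20 genes known to respond to STAT3, a list also drawn up with earlier results of these data known, 17 were higher and 1 lower in both comparisons, beside the same shares of all genes. The list's median log2 fold change was 2.58 and 2.70. Only 16 of the 20 also reached the count filter between the control groups. Timp1, an inhibitor of matrix metalloproteinases, changed most (8.16 ± 0.14, adjusted p = 6.82e-14 against contralateral), followed by Saa3 (5.55 ± 0.68, adjusted p = 4.80e-06), Lrg1 (5.47 ± 0.27, adjusted p = 2.57e-10) and Hp (3.78 ± 0.38, adjusted p = 6.99e-07). Against uncrushed nerves the largest were Timp1 (7.69), Lrg1 (5.35), Saa3 (4.93) and Il4ra, the interleukin-4 receptor (3.85). Gfap, an intermediate filament of SCs, rose by 1.46 ± 0.17 and 0.83 ± 0.17 (adjusted p = 3.31e-06 and 0.00113). The lower one was Lcn2, an iron-binding protein, which fell by 1.88 and 2.02 on the log2 scale and was named after its values were seen. Many of these genes also respond to other signals.

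**Figure D3:**
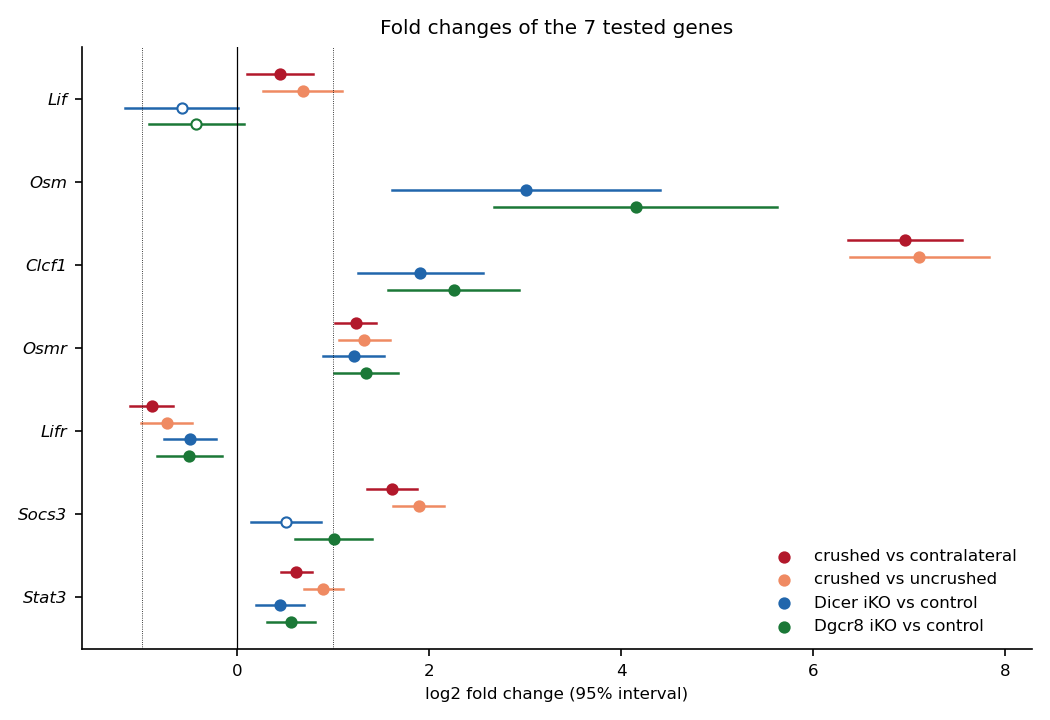
Log2 fold changes with 95% intervals for the 7 of 9 genes tested in at least 1 comparison, filled where the adjusted p was at most 0.05; dotted lines mark 2-fold. Clcf1 lies near 7 in both crush comparisons and near 2 in both iKO comparisons, Lifr is below 0 and Osmr above 1 in all 4, and Osm was tested in the iKO nerves only.

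Levels of several cell-type markers differed after crush. Of all genes, 33.5% passed as higher and 32.9% as lower against contralateral nerves, and 33.8% and 33.4% against uncrushed nerves. Beside these shares a count such as 2 of 4 markers says little. The summed level of 8 macrophage and monocyte markers was 612 to 1560 CPM in crushed, 78.2 to 140 CPM in contralateral and 92.4 to 124 CPM in uncrushed nerves, and 8 of the 8 were higher in both comparisons. The sum of 7 neutrophil markers was 35.0 to 62.6 CPM in crushed against 6.22 to 7.93 CPM in contralateral nerves, where Retnlg was at 0, and 3 of 3 tested were higher. The sum of 5 myelinating SC markers was 1704 to 2545 CPM in crushed against 24612 to 31131 CPM in contralateral nerves, and 5 of the 5 were lower. The sum of 4 fibroblast markers was 1957 to 2423 CPM against 2339 to 3166 CPM, with 2 of the 4 lower. T and B cell markers (6 genes) summed to 3.59 to 4.71 CPM against 4.405 to 5.62 CPM in contralateral nerves, with 1 of 2 tested lower, and 7.43 to 10.5 CPM in uncrushed nerves, with 2 of 3 tested lower. Schwann lineage markers (3 genes) summed to 248 to 326 CPM against 810 to 982 CPM in contralateral nerves, with 3 of the 3 lower, and perineurial markers (3 genes) to 113 to 132 CPM against 344 to 453 CPM, with 2 of the 3 lower. Endothelial markers (4 genes) summed to 145 to 183 CPM against 113 to 130 CPM, with 2 higher and 2 lower. Mast cell markers (5 genes) summed to 5.25 to 12.1 CPM against 4.90 to 37.9 CPM, with 3 of 4 tested lower. The part of these cell types in the values of the 9 genes was not tested, and in whole nerve fewer cells of a type and less RNA per cell cannot be told apart.

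In the iKO nerves the targeted genes did not fall measurably by these whole-gene counts. Dicer1 measured 81.0, 82.8 and 82.4 CPM in Dicer iKO against 88.0, 88.4 and 91.0 CPM in controls (log2 difference -0.11 ± 0.08, adjusted p = 0.357). Every mutant value of Dicer1 lay below every control. Dgcr8 measured 39.3, 53.7 and 41.7 CPM in Dgcr8 iKO against 38.2, 34.8 and 41.9 CPM in controls (0.22 ± 0.15, adjusted p = 0.233). Counts over whole transcripts do not resolve the deleted exons, and the Cre acts in only some cells of the nerve, so these values do not check the labels.

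Both iKO groups had more Osm, Clcf1, Osmr and Stat3 and less Lifr than their controls, and Socs3 passed in Dgcr8 iKO. In Dicer iKO, 5 of the 7 tested genes passed, 4 higher (12.3% of all 13045 genes) and 1 lower (8.88%). Of these, 3 were called as at least 2-fold higher, Osm, Clcf1 and Osmr (7.37% of all genes, with 1.64% called lower). Without the second control, the second mutant or the third mutant of the Dicer line 2 of the 7 passed. In Dgcr8 iKO, 6 of the 7 passed, 5 higher (23.9% of 13252 genes) and 1 lower (20.6%). Of these, 4 were called higher, Osm, Clcf1, Osmr and Socs3 (13.4% of all genes, with 6.99% called lower). In both lines Osm reached the count filter only through the mutants, where it was high. Its place in these counts is therefore no independent support. The median log2 fold change of the 7 was 0.51 in Dicer iKO and 1.001 in Dgcr8 iKO, and that of all genes was -0.01 in each.

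Osm had 12, 15 and 28 counts in Dicer iKO (1.59, 2.61 and 3.90 CPM) against 4, 2 and 1 in controls, and 16, 21 and 27 counts in Dgcr8 iKO (1.88, 1.99 and 3.14 CPM) against 0, 2 and 1 in controls. All 6 mutants lay above all controls, and Osm reached the count filter only through the mutants. The ratio of pooled counts was 8.37 (95% exact interval 3.80 to 21.8) for Dicer iKO and 19.8 (6.46 to 98.3) for Dgcr8 iKO, the latter over only 3 control counts. By the fit, which adds a prior count, the log2 fold changes were 3.00 ± 0.60 (adjusted p = 0.0142) and 4.15 ± 0.67 (adjusted p = 0.000514). In the Dicer line this call was lost without the second control, the second mutant or the third mutant, with adjusted p from 0.0557 to 0.0688. Il6 had no count in any of the 6 mutants and 0 to 2 counts in the 6 controls. Il11 had 1, 2 and 6 counts in Dicer iKO against 6, 7 and 11 in controls, and 2, 8 and 10 in Dgcr8 iKO against 7, 5 and 10, and it was below the filter. Its ratio of pooled counts was 0.399 (0.163 to 0.890) and 0.842 (0.436 to 1.62).

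Clcf1 measured 6.63, 9.21 and 6.54 CPM in Dicer iKO against 2.30, 1.60 and 2.04 CPM in controls, and 14.8, 11.8 and 13.6 CPM in Dgcr8 iKO against 2.94, 4.16 and 1.45 CPM in controls. Neither pair of groups overlapped. Clcf1 rose 3.75-fold (2.39 to 5.89, adjusted p = 0.00517) and 4.76-fold (2.97 to 7.63, adjusted p = 0.000177). Lif measured 6.10, 5.74 and 8.49 CPM in Dicer iKO against 7.46, 11.5 and 11.7 CPM in controls, and 7.18, 8.54 and 10.6 CPM in Dgcr8 iKO against 9.30, 14.6 and 11.5 CPM in controls. In each line 2 of the 3 mutants lay below every control. The log2 differences were -0.58 (95% interval -1.17 to 0.01, adjusted p = 0.142) and -0.43 (-0.92 to 0.06, adjusted p = 0.142), which did not pass. The differences of Lif had the opposite sign to its change after crush, and the experiments were not tested against each other.

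Osmr measured 89.5, 89.9 and 93.4 CPM in Dicer iKO against 35.2, 35.2 and 47.9 CPM in controls, and 110, 99.1 and 124 CPM in Dgcr8 iKO against 41.1, 37.1 and 52.6 CPM in controls. It rose 2.31-fold (1.85 to 2.89, adjusted p = 0.00273) and 2.53-fold (2.01 to 3.19, adjusted p = 5.26e-05), with no overlap. Lifr measured 203, 192 and 185 CPM in Dicer iKO against 248, 260 and 311 CPM in controls, and 158, 185 and 156 CPM in Dgcr8 iKO against 190, 243 and 270 CPM in controls. The mutants lay below the controls in both lines. Lifr fell by 0.49 ± 0.12 (adjusted p = 0.0241) and by 0.50 ± 0.15 on the log2 scale (adjusted p = 0.0210). Per kb, Osmr and Lifr stood at 21.96 ± 2.48 and 20.6 ± 2.01 CPM per kb in Dgcr8 iKO and at 8.63 ± 1.59 and 29.1 ± 5.04 CPM per kb in its controls (SD, n = 3).

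Stat3 measured 161, 172 and 186 CPM in Dicer iKO against 113, 135 and 135 CPM in controls, and 187, 188 and 186 CPM in Dgcr8 iKO against 124, 129 and 128 CPM in controls. It rose 1.36-fold (1.14 to 1.62, adjusted p = 0.0270) and 1.47-fold (1.24 to 1.75, adjusted p = 0.00219), with no overlap in either line. Socs3 measured 49.3, 42.1 and 38.7 CPM in Dicer iKO against 36.5, 28.5 and 27.0 CPM in controls, and 46.7, 45.5 and 69.9 CPM in Dgcr8 iKO against 29.9, 22.7 and 27.9 CPM in controls. The groups did not overlap in either line. In Dgcr8 iKO it rose by 1.001 ± 0.18 (adjusted p = 0.00113), at the 2-fold limit, and it fell below 2-fold without the third mutant (0.78) or the second control (0.90). In Dicer iKO its log2 difference was 0.51 ± 0.16 (adjusted p = 0.0549). In Dicer iKO, Lifr and Stat3 no longer passed without the second control, the second mutant or the third mutant (adjusted p from 0.0704 to 0.111). In Dgcr8 iKO, Lifr no longer passed without the third control or the first or the third mutant (0.0522 to 0.0865).

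The effects in the 2 mutants were compared by an interaction term over the 12 libraries. None of the 7 genes passed by edgeR's quasi-likelihood test, where 0.0148% of 13552 genes did, 0 of the 7 had an unadjusted p under 0.05, and DESeq2 passed 0 of the 7. Over all genes 1861 had an unadjusted p under 0.05 by edgeR. DESeq2 passed 170 genes with a difference above 0 and 65 with one below 0. The largest differences, Dgcr8 minus Dicer, were 1.13 (95% interval -1.13 to 3.38) for Osm and 0.50 (-0.07 to 1.06) for Socs3 on the log2 scale. The intervals for Osmr (-0.32 to 0.59), Stat3 (-0.19 to 0.42) and Lifr (-0.43 to 0.43) were narrower, and that for Clcf1 ran from -0.65 to 1.34. These intervals do not show that the mutants act alike.

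The remaining ligands and receptors of the family were tested in 7 of 13 cases in each line, of which 1 was higher and 1 lower in Dicer iKO and 2 higher and 1 lower in Dgcr8 iKO. Of all genes 12.3% were higher and 8.88% lower in Dicer iKO, and 23.9% and 20.6% in Dgcr8 iKO. Cntf fell by 0.92 ± 0.25 (adjusted p = 0.0361) and by 1.97 ± 0.21 on the log2 scale (adjusted p = 3.50e-05), yet at 335 ± 89.2 CPM in Dgcr8 iKO (SD, n = 3) it remained far above Clcf1 at 13.4 CPM, also per kb (312 against 5.66 CPM per kb). Il27ra rose by 1.82 ± 0.40 (adjusted p = 0.0192) and 2.21 ± 0.32 (adjusted p = 0.000264). Its controls had 18, 13 and 6 counts in the Dicer line and 17, 10 and 10 in the Dgcr8 line. It therefore reached the count filter through the mutants, and its place among the higher genes is no independent support. Il6st rose by 0.83 ± 0.15 in Dgcr8 iKO (adjusted p = 0.00114) and had 0.24 ± 0.16 in Dicer iKO (adjusted p = 0.310), and the difference between the lines was 0.59 (95% interval 0.14 to 1.05, adjusted p = 0.261). Il6ra, Il11ra1, Cntfr and Ctf1 did not pass in either line, with log2 differences from -1.43 to 0.22. In the Dicer controls Cntfr ran from 3.39 to 20.4 CPM.

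Of the 25 kinases, STATs, phosphatases and inhibitors, 5 were higher and 2 lower in Dicer iKO and 12 higher and 1 lower in Dgcr8 iKO, with medians of 0.16 and 0.34, beside -0.01 over all genes in each line. The shares of all genes were 12.3% higher and 8.88% lower in Dicer iKO and 23.9% and 20.6% in Dgcr8 iKO, which also stand beside the counts of the next list. Ptpn6 (1.56 ± 0.32, adjusted p = 0.0160, and 2.33 ± 0.18, adjusted p = 4.69e-06) and Jak3 (1.07 ± 0.18, adjusted p = 0.00767, and 1.35 ± 0.29, adjusted p = 0.00315) were among the largest in both lines. Gab1, an adaptor of the receptors, fell by 0.76 ± 0.14 (adjusted p = 0.00961) and Ptpn1, a phosphatase, rose by 0.92 ± 0.17 (adjusted p = 0.0105) in Dicer iKO. The other lower gene was Ptpn11 in Dicer iKO and the one lower gene Pias1 in Dgcr8 iKO, named after their values were seen. Socs1 rose by 1.91 ± 0.48 (adjusted p = 0.00771) and Socs2 by 1.27 ± 0.22 (adjusted p = 0.000826) in Dgcr8 iKO, and Socs1 had 0.24 (adjusted p = 0.659) in Dicer iKO. In the Dgcr8 line Socs1 reached the count filter through the mutants, with 13, 26 and 20 counts against 3, 7 and 4 in controls. Of the 20 STAT3-responsive genes, 17 were tested in Dicer iKO, with 8 higher and 1 lower and a median of 0.71, and 18 in Dgcr8 iKO, with 15 higher and 2 lower and a median of 1.84. Timp1 changed most in both (3.78 ± 0.27, adjusted p = 0.00109, and 5.29 ± 0.24, adjusted p = 2.87e-07). Gfap rose by 2.72 ± 0.34 (adjusted p = 0.00333) and 2.62 ± 0.25 (adjusted p = 1.70e-05), and Ccnd1, a cyclin, by 1.88 ± 0.16 (adjusted p = 0.00160) and 2.89 ± 0.27 (adjusted p = 1.63e-05). In Dgcr8 iKO Lrg1 (4.62 ± 0.45, adjusted p = 2.08e-05) and Hp (3.89 ± 0.32, adjusted p = 7.69e-06) followed Timp1. Lcn2 fell by 2.01 ± 0.34 in Dicer iKO (adjusted p = 0.00853), and the 2 lower genes in Dgcr8 iKO were Lcn2 and Bcl2l1, named after their values were seen.

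**Figure D4:**
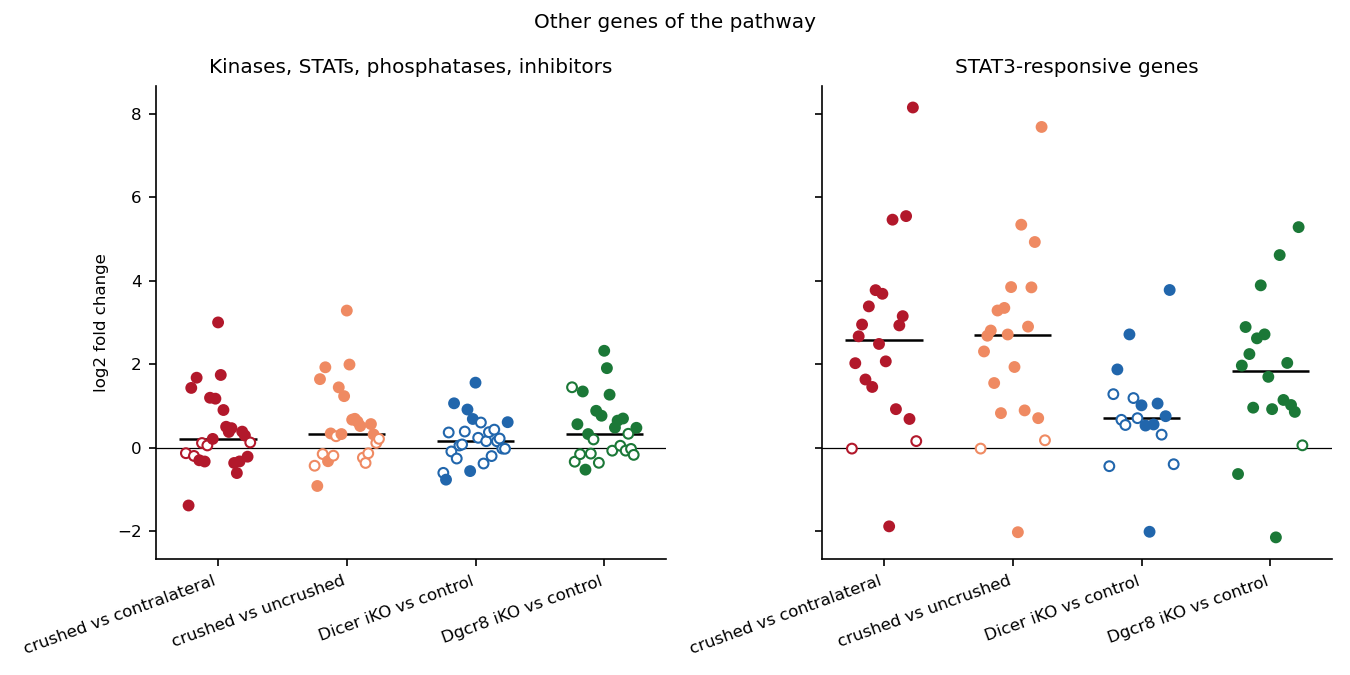
Log2 fold changes of 25 signalling genes (left) and 20 STAT3-responsive genes (right) in 4 comparisons, each point a tested gene, filled where the adjusted p was at most 0.05, with a line at the list's median. The medians of the STAT3-responsive genes are 2.58, 2.70, 0.71 and 1.84 from left to right, and those of the signalling genes lie between 0.16 and 0.34.

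In the iKO nerves the macrophage and monocyte markers summed to 3587 to 6546 CPM in Dicer iKO against 248 to 857 CPM in controls, and to 2317 to 5648 CPM in Dgcr8 iKO against 233 to 277 CPM in controls, with 6 and 7 of the 8 higher. Neutrophil markers summed to 19.8 to 32.9 and 22.01 to 36.2 CPM in the mutants against at most 14.5 CPM in controls, with Ly6g at 0 in all 4 groups, and 1 of 2 tested was higher and 1 lower in Dicer iKO, and 3 of 4 higher and 1 lower in Dgcr8 iKO. S100a9 was also at 0 in Dicer iKO, though not in Dicer controls, and in Dgcr8 controls. Retnlg was at 0 in both control groups and in neither mutant group. The 6 T and B cell markers summed to 11.5 to 27.0 and 16.2 to 24.8 CPM against at most 2.58 CPM, with 1 of 1 and 3 of 3 tested higher. Their sum was 0.543 to 2.58 CPM in Dicer controls and 0.268 to 0.416 CPM in Dgcr8 controls. The tested ones therefore reached the count filter through the mutants, and these counts are no independent support. Fibroblast markers summed to 12164 to 13125 and 8679 to 11210 CPM against 3798 to 11328 and 4100 to 5180 CPM, with 2 and 3 of the 4 higher. Myelinating SC markers (5 genes) summed to 16738 to 21406 and 10361 to 19985 CPM against 22355 to 36566 and 30140 to 35174 CPM, with 1 and 3 of the 5 lower. Mast cell markers (5 genes) summed to 250 to 341 CPM in Dicer iKO against 42.5 to 211 CPM in its controls and to 89.9 to 128 CPM in Dgcr8 iKO against 16.2 to 55.6 CPM, with 0 and 4 of the 5 higher. Schwann lineage markers summed to 1085 to 1179 and 845 to 1176 CPM against 1271 to 1724 and 1266 to 1680 CPM, with 1 of the 3 lower in each line and 1 higher in Dgcr8 iKO. Perineurial markers summed to 484 to 630 and 420 to 528 CPM against 724 to 1440 and 552 to 877 CPM, with 1 and 2 of the 3 lower and 1 higher in Dgcr8 iKO. Endothelial markers summed to 139 to 148 and 139 to 189 CPM against 208 to 228 and 216 to 251 CPM, with 1 and 2 of the 4 lower. Among all genes, 12.3% passed as higher and 8.88% as lower in Dicer iKO, and 23.9% and 20.6% in Dgcr8 iKO. The part of these cell types in the values of Osm, Clcf1, Osmr and the other genes was not tested.

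The group means of Lif, Osmr and Socs3 were set beside those of 12777 protein-coding genes. Likeness was the root mean square difference between the 7 group means of log2(CPM + 1), centred within each experiment, so a smaller value is a closer pattern. Nearest to Osmr were Trpm6 (0.0279), Fbn1 (0.0541) and Gem (0.0679). Nearest to Socs3 were Sec61a1 (0.0289), Lypla2 (0.0522) and Impdh1 (0.0525). Nearest to Lif were Timm17a (0.0644), Dpy30 (0.0647) and Lyar (0.0658). With 7 means the ranking is a description.

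**Figure D5:**
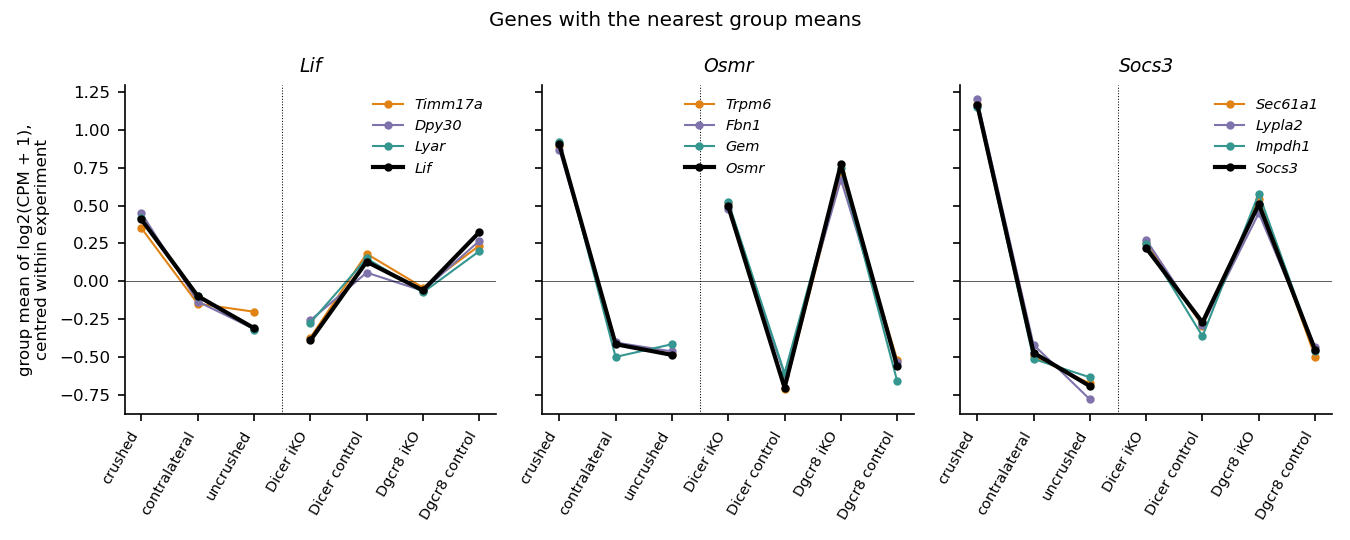
Group means of log2(CPM + 1), centred within each experiment, for Lif, Osmr and Socs3 (black) and the 3 protein-coding genes with the nearest means (coloured). Osmr is above its centre in crushed, Dicer iKO and Dgcr8 iKO nerves and Lif is above it in crushed nerves and in both iKO control groups.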

How the data were processed

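RNA from 23 mouse SN samples was sequenced, 11 in the crush and 12 in the iKO experiment. After trimming with Trimmomatic, the authors aligned reads to Ensembl GRCm38 with STAR and quantified transcripts by RSEM. Its expected counts per transcript, deposited without normalization, were added up per gene and rounded here. The TPM and FPKM values that the authors deposited beside them were not used, because 1 short ribosomal RNA gene held 61.4 to 71.8% of TPM in each crush library. By the labels, crush libraries were made with a SMARTer kit for low input and iKO libraries with TruSeq and Ribo-Zero, while the paper's methods name TruSeq. For 1 uncrushed library the title and the description disagree on its number, and the title was followed. Symbols, types, positions and transcripts came from GENCODE M21 (GRCm38).

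A minimum count of 10 was set in filterByExpr of edgeR 4.0.16 (R 4.3.3), scaling was by TMM, and each test compared 2 groups or, over the 12 iKO libraries, their interaction (adjusted p alone). DESeq2 1.42.0 served as an alternative. CPM per kb divides CPM by the mean transcript length weighted by counts within an experiment. Intervals on ratios of pooled counts are exact (Clopper-Pearson, 95%). The members and gene lists were chosen with earlier results of these data known. Named were the 9 members, the tested genes of the family, and per comparison up to 4 genes of the other lists with the largest change among those that passed, with Gfap, Timp1 and Socs1 in any case. The scripts were tested on simulated data. Over 27 pairs of replicate libraries none was a copy of another (chi-square per degree of freedom 4.36 to 42.4). Some gene results are not reported here.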

Additional observations from a re-analysis of the deposited data

Results flagged for a closer look

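Lifr in contralateral nerves had 1 library set apart, the fourth, at 159 CPM beside 138 to 140 CPM in the other 3. The gap to the next library was 0.903 of the group's range. It was the only flag over 18 combinations of a gene and a group of 4 libraries, of which chance would flag about 1 in 20. Without that library Lifr was lower after crush by 0.85 (log2 fold change -0.85, edgeR adjusted p = 2.21e-05), beside -0.89 with it.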

How the results depend on the processing

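The alternatives were RLE and upper-quartile scaling, no filter, at least 10 counts in every library, a replicate block, edgeR's exact test, DESeq2, all groups of an experiment in one fit, an adjusted p limit of 0.01, and leaving out each library. Counts of members that passed or were called stayed within 1.5 times in 171 cases and moved in 6. Without the filter 6 members were called against uncrushed nerves, where 3 had been, adding Il6, Osm and Stat3. That setting also moved the log2 fold changes of all genes upwards, by a median of 0.227, and Stat3 had been short of 2-fold before. In Dicer iKO 2 members passed with the replicate block and 2 at the limit of 0.01, where 5 had. With at least 10 counts in every library Osm, and Clcf1 in most comparisons, could not be tested. Leaving out 1 library gave 3 called in both crush comparisons, 2 to 3 in Dicer iKO and 3 to 4 in Dgcr8 iKO, and 0 in contralateral against uncrushed and in the interaction. Those that passed numbered 5 to 6 against contralateral, 6 against uncrushed, 0 between controls, 2 to 6 in Dicer iKO and 5 to 6 in Dgcr8 iKO. In the Dicer line Osm, Stat3 and Lifr were the ones lost, and Socs3 passed by the exact test (edgeR adjusted p = 0.0370), by DESeq2 (0.0489) and without the first control (0.0195). The cause was not tested.

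Replicate numbers were not treated as pairs, since same-numbered crushed and contralateral nerves correlated in their deviations at -0.0942, 0.140, -0.0121 and 0.177 and other comparisons were also mixed in sign. With the replicate block, called members were 3 in each crush comparison, 2 in Dicer iKO and 3 in Dgcr8 iKO, where Socs3 came to 0.99.

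Directions that reversed were of values near 0 that had not passed. Osmr between the controls came to -0.0371 with upper-quartile scaling, -0.0241 with at least 10 counts, -0.0168 with the replicate block, and -0.0169, -0.0272, -0.0160 and -0.0484 with 1 library left out, where Clcf1 came to -0.0212 (ranges -0.0484 to 0.0598 for Osmr and -0.0212 to 0.2265 for Clcf1). The interaction of Lifr came to 0.0123 with RLE scaling, 0.0033 without the filter, 0.0091 with at least 10 counts and 0.0123 by DESeq2. With 1 library left out it ran from -0.1336 to 0.1044, being above 0 at 0.0324, 0.1044, 0.0390, 0.0446, 0.0597, 0.0370 and 0.0423, and that of Osmr from -0.0320 to 0.2863. Depth limits Il6, Il11 and Osm, at 28 counts or fewer per library.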
